A study of Mus musculus with 14 samples.

Results

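The handling of bile acids by the small intestinal epithelium was followed through 7 genes, chosen by name for their place in uptake, intracellular carriage, export and sensing of bile acids: *Slc10a2*, *Fabp6*, *Slc51a*, *Slc51b*, *Nr1h4*, *Nr0b2* and *Fgf15*. All 7 were found by symbol among the 18781 genes of the deposited expression table. Of these, 6 had a mean over the 14 libraries of at least 3.32 on the log2 scale, the log2 of 10, and were tested, whereas *Fabp6* lay below this level.

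The libraries came from organoids grown from small intestinal stem cells of mice with floxed alleles of *Atg16l1*, a component of the autophagy machinery, *Rnaseh2b*, a subunit of the RNase H2 enzyme that removes ribonucleotides from DNA, or both. Cre under the Villin promoter, which is active in the intestinal epithelium, deleted the floxed alleles. WT organoids carried both floxed genes without Cre (ATG16L1flox/flox_RNaseH2Bflox/flox, n = 4). *Rnaseh2b* ΔIEC organoids had the genotype RNaseH2Bflox/flox_VillinCre+/- (n = 2), *Atg16l1* ΔIEC organoids ATG16L1flox/flox_VillinCre+/- (n = 4), and *Atg16l1/Rnaseh2b* ΔIEC organoids (below DKO) ATG16L1flox/flox_RNaseH2Bflox/flox_VillinCre+/- (n = 4). All were grown in IntestiCult medium with no treatment, and the labels give no age of the mice. With polyadenylated RNA from these organoids, the study asked if loss of *Atg16l1* alters the p53 response of *Rnaseh2b*-deleted epithelium. The table holds normalised log2 values, whose exact transformation is not named and which are drawn toward each gene's mean, so that differences of weakly expressed genes are understated.

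Several features of the libraries bear on what follows. Whether libraries of a genotype came from different mice is not stated, and libraries 1 and 2, like libraries 3 and 4, deviated together from their genotype's mean, with Pearson's r of 0.41 to 0.86 over the 6 such pairs outside *Rnaseh2b* ΔIEC. Levels of *Xist* were 13.24 to 13.78 in 6 libraries and 7.56 to 7.80 in the other 8, with the Y-linked *Ddx3y*, *Eif2s3y*, *Kdm5d* and *Uty* the other way round, so that the pairs also differed in sex. The *Rnaseh2b* ΔIEC libraries, WT libraries 1 and 2, *Atg16l1* ΔIEC libraries 3 and 4 and DKO libraries 1 and 2 were those with low *Xist*. By number and low *Xist*, the *Rnaseh2b* ΔIEC libraries may thus be a single pair. Every comparison with this genotype would then rest on that pair, and none of the alternatives below can separate pair from genotype. By their names, the WT libraries and DKO libraries 3 and 4 were read on lane 1, and all others on lane 2. A lane effect can thus be estimated only from DKO libraries 1 and 2 against 3 and 4. These also differ in sex and as pairs, so that values with lane as a covariate carry that split. Fits to lane 2 alone hold only DKO libraries 1 and 2.

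The deleted genes matched the labels, with a difference in degree. *Atg16l1* read 9.43, 9.54, 9.44 and 9.44 (log2) in WT libraries 1 to 4, 9.52 and 9.53 in *Rnaseh2b* ΔIEC, 6.87, 7.35, 6.75 and 6.73 in *Atg16l1* ΔIEC, and 8.37, 8.14, 8.57 and 8.47 in DKO organoids. *Rnaseh2b* read 8.47, 8.41, 8.58 and 8.70 in WT, 7.21 and 7.15 in *Rnaseh2b* ΔIEC, 8.71, 8.72, 8.58 and 8.48 in *Atg16l1* ΔIEC, and 7.92, 7.68, 7.79 and 7.84 in DKO organoids. For both genes, every DKO library lay between the WT libraries and those of the single deletion. The *Atg16l1* level was 1.46 ± 0.12 (log2, SE) higher in DKO than in *Atg16l1* ΔIEC organoids (limma adjusted p = 2.0e-05), and the *Rnaseh2b* level was 0.63 ± 0.09 higher in DKO than in *Rnaseh2b* ΔIEC organoids (adjusted p = 0.00074). The values come from whole-gene read counts and do not separate deleted from intact transcripts.

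In the ileum, enterocytes take up conjugated bile acids from the lumen through the apical sodium-dependent transporter, carry them across the cell on a cytosolic binding protein and release them into the portal circulation through a heteromeric basolateral exporter. Bile acids bind the nuclear receptor FXR, which pairs with RXR and induces the exporter, the binding protein, the corepressor SHP and the hormone FGF15. FGF15 travels to the liver and acts there through FGFR4 and β-Klotho to repress bile acid synthesis.

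*Slc10a2* (ENSMUSG00000023073, chr8:5083219-5105351 on the minus strand of GRCm38) encodes the apical uptake transporter. Its level was 6.31, 6.23, 7.12 and 6.90 (log2) in WT libraries 1 to 4, 6.41 and 6.35 in *Rnaseh2b* ΔIEC, 6.33, 6.38, 6.20 and 6.14 in *Atg16l1* ΔIEC, and 6.61, 6.48, 6.17 and 6.17 in DKO organoids. WT libraries 3 and 4 were the highest of the 14, while WT libraries 1 and 2 lay among those of the deleted genotypes, so that all groups overlapped. No comparison of *Slc10a2* passed the threshold, an adjusted p of 0.05 in limma. Its differences from WT were -0.26 (95% interval -0.71 to 0.20, adjusted p = 0.39) in *Rnaseh2b* ΔIEC, -0.38 (-0.75 to -0.01, adjusted p = 0.14) in *Atg16l1* ΔIEC and -0.29 (-0.66 to 0.09, adjusted p = 0.27) in DKO organoids. These values depended on which WT pair was used, an alternative chosen after seeing the data. Without WT libraries 1 and 2 the differences were -0.63 (adjusted p = 0.01), -0.75 (adjusted p = 0.0042) and -0.66 (adjusted p = 0.018), and without WT libraries 3 and 4 they were 0.11 (adjusted p = 0.61), -0.01 (adjusted p = 0.97) and 0.09 (adjusted p = 0.65), in the same order of genotypes. With lane 2 libraries alone, *Slc10a2* was 0.28 higher in DKO than in *Atg16l1* ΔIEC organoids (adjusted p = 0.039), against 0.09 (adjusted p = 0.72) with all libraries. Of DKO organoids that fit held libraries 1 and 2 alone, a single pair of the same sex, treated as independent.

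The same WT pairs also differed in other genes, among them markers of proximal small intestine in the opposite direction and goblet markers in the same direction. *Pdx1*, a duodenal transcription factor, read 7.40, 7.43, 6.39 and 6.21 (log2) in WT libraries 1 to 4, and *Onecut2*, a transcription factor of proximal small intestine, 11.13, 11.05, 10.15 and 10.03. *Slc40a1*, the iron exporter of duodenal enterocytes, read 10.58, 10.19, 8.65 and 8.61. WT libraries 3 and 4 thus combined high *Slc10a2* with low values of these 3 genes, which were picked after their values were seen. The summed level of the 5 goblet markers was 15.60, 15.61, 16.15 and 16.14 in WT libraries 1 to 4, higher in the pair with high *Slc10a2* and *Fgf15*. The DKO pairs were split as well, with *Slc40a1* at 8.99 and 9.45 in libraries 1 and 2 and at 11.72 and 11.71 in libraries 3 and 4, *Pdx1* at 6.59 and 6.69 against 7.67 and 7.58, and *Onecut2* at 10.49 and 10.67 against 11.28 and 11.16. In DKO organoids, too, the pair with the lower values of these 3 genes, libraries 1 and 2, had the higher *Slc10a2*. The proximal genes *Cybrd1* and *Gata4* were also lower in the pair with high *Slc10a2* in both genotypes. *Cybrd1* read 13.61, 13.45, 13.12 and 13.06 in WT libraries 1 to 4 and 12.11, 12.71, 13.27 and 13.26 in DKO libraries 1 to 4. In DKO organoids this did not hold for the proximal gene *Lct*, at 10.42 and 10.65 in libraries 1 and 2 against 9.89 and 9.94 in libraries 3 and 4. *Fabp1*, *Apoa4*, *Ada* and the summed level of all 9 proximal markers (15.35 and 15.86 against 15.70 and 15.75) overlapped between the DKO pairs. In *Atg16l1* ΔIEC organoids the proximal genes were mixed. Libraries 1 and 2 had the higher *Slc10a2*, and also the higher *Slc40a1* (9.56 and 10.27 against 9.46 and 9.20) and *Ada*. *Pdx1*, *Onecut2* and *Cybrd1* overlapped between the pairs. *Lct*, *Fabp1*, *Apoa4*, *Gata4* and the summed level of the 9 proximal markers (15.78 and 15.74 against 16.51 and 16.20) were lower in libraries 1 and 2. The part of sex, culture or intestinal site in these splits was not tested.

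*Fabp6* (ENSMUSG00000020405, chr11:43596049-43601540, minus strand) encodes the cytosolic bile acid binding protein of ileal enterocytes. Its value lay between 0.41 and 0.46 (log2) in all 14 libraries, and 18.6% of the genes in the table had a lower mean. For comparison, the leukocyte gene *Ptprc* read 0.47 to 0.53 in the same libraries. The genotypes overlapped throughout, and no difference of *Fabp6* was tested.

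The basolateral exporter consists of the subunits OSTα and OSTβ. *Slc51a* (ENSMUSG00000035699, chr16:32474504-32487879, minus strand), which encodes OSTα, read 6.96, 6.90, 6.77 and 6.78 (log2) in WT libraries, 7.73 and 7.84 in *Rnaseh2b* ΔIEC, 6.97, 7.06, 7.44 and 7.27 in *Atg16l1* ΔIEC, and 6.99, 7.17, 6.83 and 7.05 in DKO organoids. Both *Rnaseh2b* ΔIEC libraries lay above all others, every *Atg16l1* ΔIEC library lay above every WT library, and DKO overlapped with WT and *Atg16l1* ΔIEC. *Slc51a* rose 1.91-fold in *Rnaseh2b* ΔIEC against WT, a log2 difference of 0.94 ± 0.12 (SE, adjusted p = 0.00022). It also rose in *Atg16l1* ΔIEC organoids, by 0.33 ± 0.10 (adjusted p = 0.031), and its difference of 0.16 in DKO organoids did not pass (95% interval -0.05 to 0.37, adjusted p = 0.29). In DKO organoids it fell by 0.78 ± 0.12 against *Rnaseh2b* ΔIEC (adjusted p = 0.00097), and in *Rnaseh2b* ΔIEC organoids it was 0.60 ± 0.12 higher than in *Atg16l1* ΔIEC (adjusted p = 0.011).

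The rise of *Slc51a* in *Rnaseh2b* ΔIEC against WT passed under each of the 23 alternatives tried, with adjusted p of at most 0.015, and so did its fall in DKO against *Rnaseh2b* ΔIEC under 24 (at most 0.028). The smaller rise in *Atg16l1* ΔIEC organoids passed under 14 of 23 alternatives. It was lost with lane as a covariate (0.19, adjusted p = 0.46), with the replicate block (0.33, 0.0532), with the pair as a random effect (0.33, 0.23) and without WT libraries 3 and 4 (0.26, 0.19). Leaving out a single library also ended it for *Atg16l1* ΔIEC libraries 3 (0.25, adjusted p = 0.086) and 4 (0.31, 0.084) and WT libraries 2 (0.35, 0.0527), 3 (0.31, 0.079) and 4 (0.31, 0.073). The difference between *Rnaseh2b* ΔIEC and *Atg16l1* ΔIEC organoids was lost without *Rnaseh2b* ΔIEC library 1 (0.66, adjusted p = 0.077) or 2 (0.55, 0.16) and with the pair as a random effect (0.60, 0.18).

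*Slc51b* (ENSMUSG00000053862, chr9:65412714-65422955, minus strand) encodes OSTβ. Its level was 7.03, 6.86, 6.99 and 7.0 (log2) in WT, 7.52 and 7.63 in *Rnaseh2b* ΔIEC, 6.84, 6.99, 7.38 and 7.19 in *Atg16l1* ΔIEC, and 6.48, 6.85, 6.50 and 6.32 in DKO organoids. The *Rnaseh2b* ΔIEC libraries were again the highest of all, and every DKO library lay below every WT library, with DKO library 2 just below WT library 2 and overlapping with *Atg16l1* ΔIEC. *Slc51b* rose by 0.60 ± 0.15 in *Rnaseh2b* ΔIEC against WT (adjusted p = 0.0091) and fell by 0.43 ± 0.12 in DKO against WT (adjusted p = 0.028). Against *Rnaseh2b* ΔIEC, *Slc51b* fell by 1.03 ± 0.15 in DKO organoids, a 2.05-fold lower level (adjusted p = 0.00059). It fell by 0.56 ± 0.12 in DKO against *Atg16l1* ΔIEC (adjusted p = 0.0055), although the libraries overlapped. *Atg16l1* ΔIEC organoids differed from WT by 0.13 (95% interval -0.12 to 0.39, adjusted p = 0.46), and *Rnaseh2b* ΔIEC from *Atg16l1* ΔIEC by 0.47 (0.16 to 0.79, adjusted p = 0.07), neither of which passed.

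Of the calls on *Slc51b*, the fall in DKO against *Rnaseh2b* ΔIEC passed under all 24 alternatives (adjusted p at most 0.019). Its rise in *Rnaseh2b* ΔIEC organoids passed under 19 of 23, and was lost with lane as a covariate (0.35, adjusted p = 0.28), with the pair as a random effect (0.60, 0.12) and without *Rnaseh2b* ΔIEC library 1 (0.66, 0.054) or 2 (0.55, 0.092). The fall in DKO against WT passed under 15 of 24. It was lost with the pair as a random effect (-0.43, adjusted p = 0.26), without WT libraries 1 and 2 (-0.46, 0.12) and without WT libraries 3 and 4 (-0.41, 0.094). Single libraries that ended this call when left out were DKO 1 (-0.41, adjusted p = 0.066), 3 (-0.42, 0.0522) and 4 (-0.36, 0.06) and WT 1 (-0.41, 0.074), 3 (-0.43, 0.0538) and 4 (-0.42, 0.0534). The fall in DKO against *Atg16l1* ΔIEC was lost with the pair as a random effect (-0.56, adjusted p = 0.092) and with lane 2 alone (-0.43, 0.069). For *Rnaseh2b* ΔIEC against *Atg16l1* ΔIEC, the difference in *Slc51b* came to pass with lane as a covariate (0.47, adjusted p = 0.037), without *Atg16l1* ΔIEC library 3 (0.57, 0.027) and without DKO library 2 (0.47, 0.04).

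**Figure D1:**
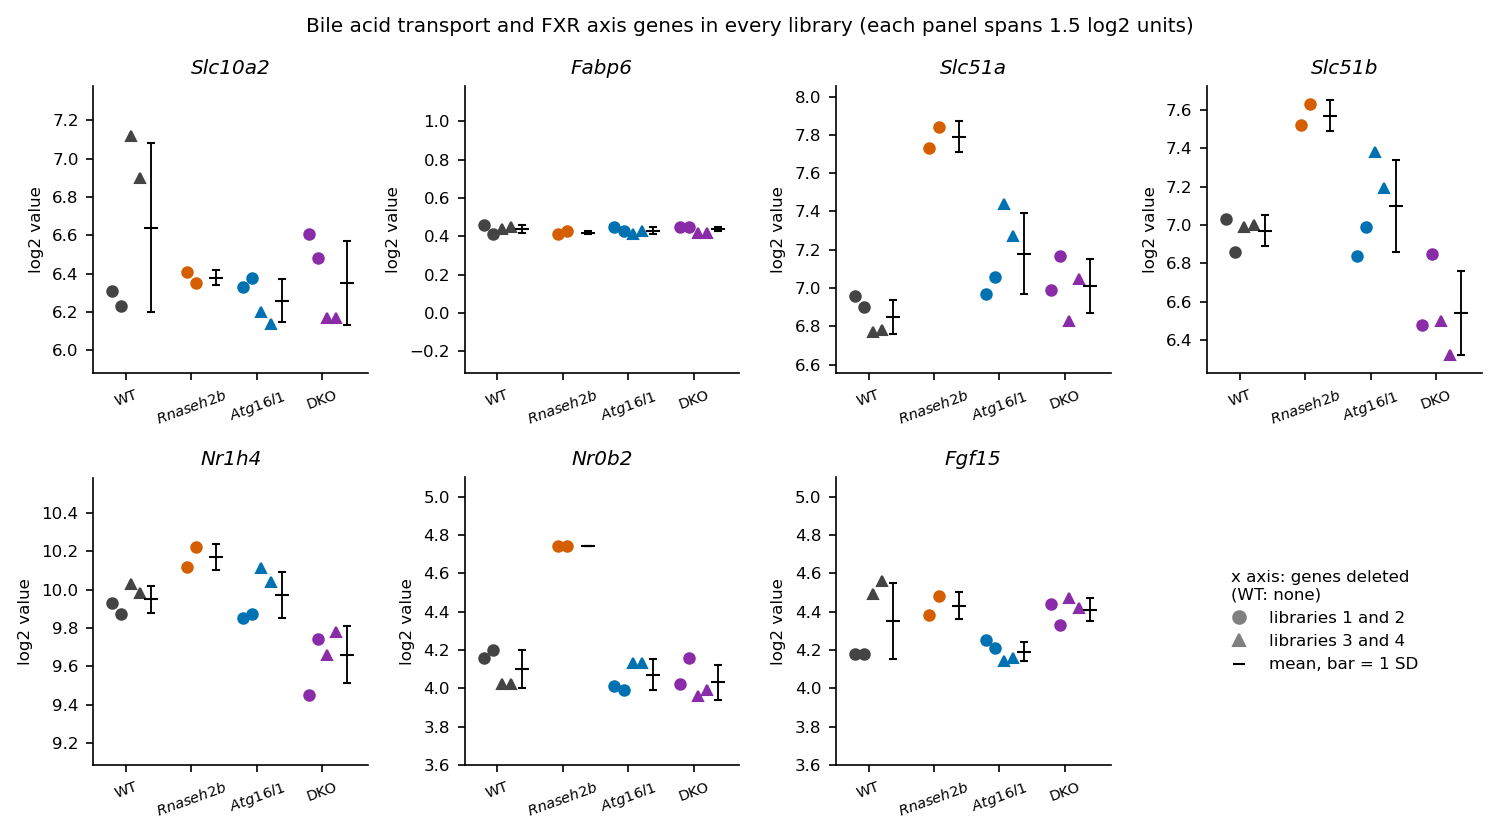
Deposited log2 value of each of the 7 genes (vertical axis) in each of the 14 libraries, by genotype (horizontal axis), with points for libraries and bars for the mean and SD of each genotype. *Slc51a*, *Slc51b* and *Nr0b2* are highest in both *Rnaseh2b* ΔIEC libraries, and *Slc10a2* is highest in WT libraries 3 and 4.

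*Nr1h4* (ENSMUSG00000047638, chr10:89454234-89533585, minus strand) encodes the bile acid receptor FXR. It read 9.93, 9.87, 10.03 and 9.98 (log2) in WT, 10.12 and 10.22 in *Rnaseh2b* ΔIEC, 9.85, 9.87, 10.11 and 10.04 in *Atg16l1* ΔIEC, and 9.45, 9.74, 9.66 and 9.78 in DKO organoids. The DKO libraries were the lowest and the *Rnaseh2b* ΔIEC libraries the highest of the 14, with no overlap with any other genotype. *Nr1h4* fell in DKO organoids by 0.29 ± 0.07 against WT (adjusted p = 0.019), by 0.51 ± 0.09 against *Rnaseh2b* ΔIEC (adjusted p = 0.002) and by 0.31 ± 0.07 against *Atg16l1* ΔIEC (adjusted p = 0.0098). Its difference from WT was 0.22 in *Rnaseh2b* ΔIEC organoids (95% interval 0.02 to 0.41, adjusted p = 0.091) and 0.02 in *Atg16l1* ΔIEC organoids (-0.14 to 0.17, adjusted p = 0.9). The first of these came to pass with the replicate block (0.29, adjusted p = 0.019) and without DKO library 1 (0.22, 0.038). With the pair as a random effect the 3 falls had adjusted p of 0.24, 0.0504 and 0.14, and the fall against WT was also lost with lane as a covariate (-0.23, adjusted p = 0.11), without WT libraries 1 and 2 (-0.34, 0.064) and without WT libraries 3 and 4 (-0.24, 0.094).

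*Nr0b2* (ENSMUSG00000037583, chr4:133553376-133556536, plus strand) encodes SHP, an FXR target that represses transcription through other nuclear receptors. Its level was 4.16, 4.20, 4.02 and 4.02 (log2) in WT, 4.74 and 4.74 in *Rnaseh2b* ΔIEC, 4.01, 3.99, 4.13 and 4.13 in *Atg16l1* ΔIEC, and 4.02, 4.16, 3.96 and 3.99 in DKO organoids. Both *Rnaseh2b* ΔIEC libraries stood above the other 12, which overlapped among themselves. *Nr0b2* rose in *Rnaseh2b* ΔIEC organoids by 0.64 ± 0.07 against WT (1.56-fold, adjusted p = 6.8e-05) and was 0.67 ± 0.07 higher than in *Atg16l1* ΔIEC organoids (adjusted p = 8.5e-05). In DKO organoids it fell by 0.71 ± 0.07 against *Rnaseh2b* ΔIEC (adjusted p = 8.7e-05). These 3 calls passed under every alternative tried. None of these alternatives can separate the genotype from the single pair that the *Rnaseh2b* ΔIEC libraries may form. *Nr0b2* differed from WT by -0.03 (95% interval -0.15 to 0.08, adjusted p = 0.7) in *Atg16l1* ΔIEC and by -0.07 (-0.19 to 0.05, adjusted p = 0.42) in DKO organoids.

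*Fgf15* (ENSMUSG00000031073, chr7:144896531-144900953, plus strand) encodes the enterokine released in response to FXR. Its level was 4.18, 4.18, 4.49 and 4.56 (log2) in WT, 4.38 and 4.48 in *Rnaseh2b* ΔIEC, 4.25, 4.21, 4.14 and 4.16 in *Atg16l1* ΔIEC, and 4.44, 4.33, 4.47 and 4.42 in DKO organoids. WT libraries 3 and 4 were the highest and WT libraries 1 and 2 among the lowest, as for *Slc10a2*, and the *Atg16l1* ΔIEC libraries lay below all DKO and *Rnaseh2b* ΔIEC libraries. *Fgf15* was 0.22 ± 0.08 higher in DKO than in *Atg16l1* ΔIEC organoids (adjusted p = 0.0465), and the difference of 0.24 between *Rnaseh2b* ΔIEC and *Atg16l1* ΔIEC did not pass (95% interval 0.04 to 0.45, adjusted p = 0.14). The difference between *Atg16l1* ΔIEC and WT was -0.16 (-0.33 to 0.00, adjusted p = 0.15). The intervals against WT reached from -0.12 to 0.28 in *Rnaseh2b* ΔIEC and from -0.10 to 0.23 in DKO organoids. They treat libraries as independent and do not bound the differences on this drawn-in scale. Without WT libraries 1 and 2 the DKO value was -0.11, outside its interval.

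The call on *Fgf15* passed under 10 of 24 alternatives. It was lost with no filter on low values (0.22, adjusted p = 0.07), median scaling (0.22, 0.0546), lane as a covariate (0.20, 0.13), the replicate block (0.22, 0.055) and the pair as a random effect (0.22, 0.18). Leaving out either *Rnaseh2b* ΔIEC library (0.22 each, adjusted p = 0.058 each), *Atg16l1* ΔIEC library 1 (0.24, 0.0503), 2 (0.23, 0.064), 3 (0.21, 0.12) or 4 (0.21, 0.11), or DKO library 1 (0.22, 0.09), 3 (0.21, 0.098) or 4 (0.22, 0.078) also ended it. Against WT, the values of *Fgf15* turned with the WT pair. Without WT libraries 1 and 2 they were -0.09 (adjusted p = 0.29), -0.33 (0.0027) and -0.11 (0.24), for *Rnaseh2b* ΔIEC, *Atg16l1* ΔIEC and DKO organoids in turn. Without WT libraries 3 and 4 they were 0.25 (adjusted p = 0.014), 0.01 (0.94) and 0.23 (0.011). With sex as a covariate, also added after seeing the data, the value was -0.16 in *Atg16l1* ΔIEC against WT (adjusted p = 0.0471) and 0.32 in *Rnaseh2b* ΔIEC against *Atg16l1* ΔIEC (adjusted p = 0.018). The latter was 0.24 with lane 2 alone (adjusted p = 0.027), without WT libraries 1 and 2 (0.017) and without WT libraries 3 and 4 (0.015).

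Per kilobase of exon on the linear scale, the mean level of the 7 genes in WT organoids was highest for *Nr1h4*, at 430 ± 20.3 (SD, n = 4), followed by *Slc51b* at 177 ± 9.09 and *Slc51a* at 36.2 ± 2.33. *Slc10a2* came next with 24.9 ± 7.54, then *Nr0b2* with 15.2 ± 1, *Fgf15* with 6.73 ± 0.924 and *Fabp6* with 2.83 ± 0.0361. Neighbours in this order did not overlap between WT libraries, but the lowest *Slc10a2* level was 18 and the highest *Nr0b2* level 16.3, and the highest *Slc10a2* level was 33.6 against a lowest *Slc51a* level of 34.2. The order was the same in *Atg16l1* ΔIEC and DKO organoids. In *Rnaseh2b* ΔIEC organoids *Nr0b2*, at 23.6 ± 0.0242 (n = 2), exceeded *Slc10a2*, at 20.1 ± 0.619. The mRNAs of the exporter subunits were thus measured at unequal levels per kilobase in every genotype, with *Slc51b* at 269 ± 15 and *Slc51a* at 69.1 ± 3.82 in *Rnaseh2b* ΔIEC and at 132 ± 21.3 and 40.4 ± 3.85 in DKO organoids. Lengths were those of all annotated exons of a gene joined, 3198 bases for *Slc51a* and 709 for *Slc51b*. They can exceed the length of the expressed mRNA, which lowers the level per kilobase, and the order of the genes depends on them.

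Counted over the 6 tested genes, 3 rose and 0 fell in *Rnaseh2b* ΔIEC against WT, where 26.7% of all 12802 genes tested passed. In *Atg16l1* ΔIEC against WT 1 rose, beside 19.1% of all genes, and in DKO against WT 2 fell, beside 16.1%. Against *Rnaseh2b* ΔIEC, 4 of the 6 fell in DKO organoids, beside 25.5% of all genes, which was the largest count of members among the 6 pairwise comparisons. In DKO against *Atg16l1* ΔIEC, 1 rose and 2 fell, beside 25.1%, and in *Rnaseh2b* ΔIEC against *Atg16l1* ΔIEC 2 were higher, beside 6.81%. The median difference of the 6 genes was 0.41 in *Rnaseh2b* ΔIEC against WT, -0.01 in *Atg16l1* ΔIEC against WT, -0.18 in DKO against WT, -0.61 in DKO against *Rnaseh2b* ΔIEC, -0.10 in DKO against *Atg16l1* ΔIEC and 0.36 in *Rnaseh2b* ΔIEC against *Atg16l1* ΔIEC, with a median over all genes of 0.00 in each. These comparisons share libraries, and the members were not picked independently of the data. Without *Rnaseh2b* ΔIEC library 1, 2 members and 1135 genes passed in *Rnaseh2b* ΔIEC against WT, against 3424 genes with all libraries, and without *Rnaseh2b* ΔIEC library 2, 757 genes passed in DKO against *Rnaseh2b* ΔIEC, against 3262. Leaving out either *Rnaseh2b* ΔIEC library left 1 member in *Rnaseh2b* ΔIEC against *Atg16l1* ΔIEC, with 170 genes without library 1 and 90 without library 2, against 872. With the pair as a random effect the members that passed numbered 0 in *Atg16l1* ΔIEC against WT, DKO against WT and DKO against *Atg16l1* ΔIEC, and 1 in *Rnaseh2b* ΔIEC against *Atg16l1* ΔIEC, where 61 genes passed.

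Whether deletion of *Rnaseh2b* had a different effect in *Atg16l1*-deleted than in *Atg16l1*-intact organoids was tested as the difference between DKO and *Atg16l1* ΔIEC minus that between *Rnaseh2b* ΔIEC and WT. This interaction passed for 4 of the 6 genes, all negative, beside 35.1% of all genes, with a member median of -0.60 against 0.00 over all genes. For the same interaction, 14 of 17 enterocyte markers passed with a negative value (list median -1.38), and 5 of 5 goblet (1.40), 4 of 5 stem cell (1.03) and 3 of 5 Paneth markers (0.68) passed with a positive value, and the part of these cell types in the values of the bile acid genes was not tested. Exporter subunit *Slc51a* had an interaction of -1.11 ± 0.16 (SE, adjusted p = 0.00026) and *Slc51b* of -1.17 ± 0.19 (adjusted p = 0.0006). For the receptor gene *Nr1h4* it was -0.53 ± 0.12 (adjusted p = 0.004), and for its target *Nr0b2* -0.67 ± 0.09 (adjusted p = 0.00016). Interaction values of *Slc10a2* (0.35, 95% interval -0.24 to 0.94, adjusted p = 0.34) and *Fgf15* (0.14, -0.12 to 0.40, adjusted p = 0.38) did not pass. That of *Slc51b* was lost with lane as a covariate (-0.78, adjusted p = 0.073) and that of *Nr1h4* with the pair as a random effect (-0.53, adjusted p = 0.074). Without WT libraries 1 and 2 the interaction passed for *Slc10a2* (0.72, adjusted p = 0.0093) and *Fgf15* (0.31, 0.0065), and without WT libraries 3 and 4 it was -0.02 (0.94) and -0.03 (0.81).

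**Figure D2:**
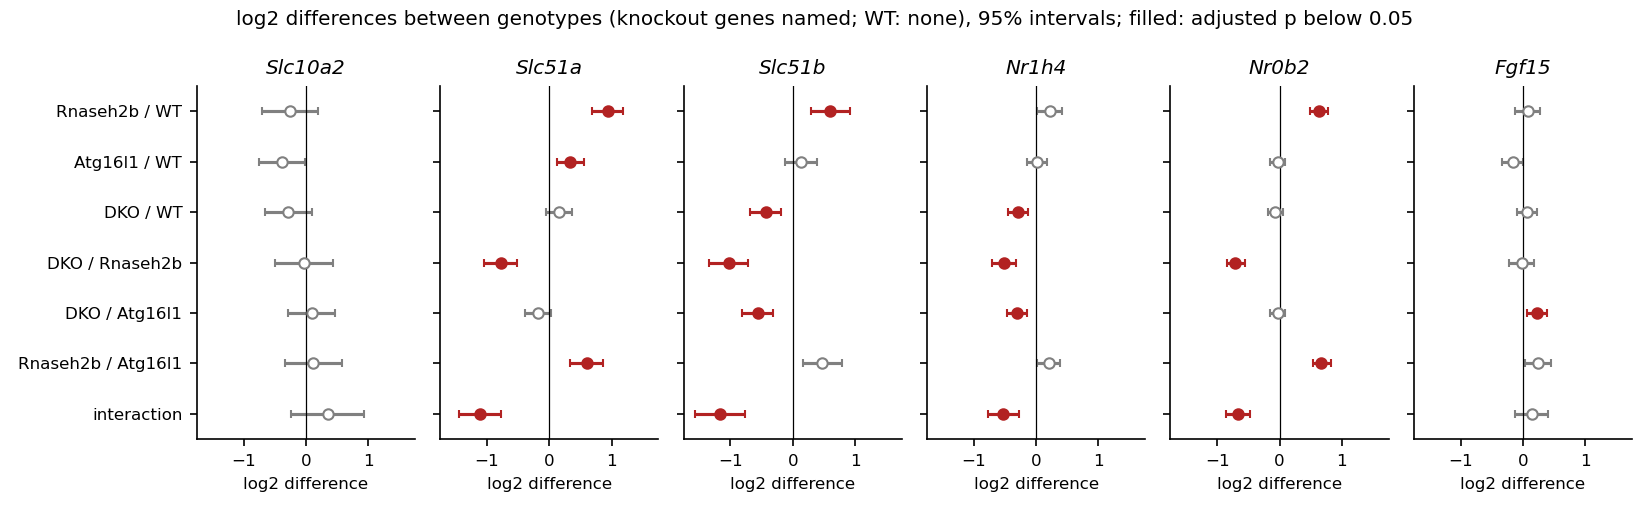
Log2 difference (horizontal axis) of the 6 tested genes in each comparison, with 95% intervals from limma and filled points for adjusted p below 0.05. *Slc51a*, *Slc51b*, *Nr1h4* and *Nr0b2* lie below 0 in DKO against *Rnaseh2b* ΔIEC and in the interaction.

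Levels of *Slc51a*, *Slc51b*, *Nr1h4* and *Nr0b2* moved with those of enterocyte markers between *Rnaseh2b* ΔIEC and DKO organoids. Of 17 enterocyte genes, 13 rose and 0 fell in *Rnaseh2b* ΔIEC against WT (median 0.95), and 0 rose and 15 fell in DKO against *Rnaseh2b* ΔIEC (median -1.08), beside all-gene medians of 0.00. Examples from *Rnaseh2b* ΔIEC against WT were the brush border lactase *Lct* (1.56 ± 0.35, adjusted p = 0.0063), the fructose transporter *Slc2a5* (1.44 ± 0.23, 0.00088) and the apolipoprotein *Apoa4* (1.37 ± 0.18, 0.00025). In *Atg16l1* ΔIEC against WT 2 of the 17 rose (median 0.24), in DKO against WT 1 rose and 4 fell (-0.23), in DKO against *Atg16l1* ΔIEC 6 fell (-0.51) and in *Rnaseh2b* ΔIEC against *Atg16l1* ΔIEC 4 were higher (0.57). The summed level of the list, in which *Sis* was the most abundant, was 17.84, 17.67, 17.37 and 17.32 (log2) in WT, 18.25 and 18.39 in *Rnaseh2b* ΔIEC, 17.48, 17.38, 18.06 and 17.86 in *Atg16l1* ΔIEC, and 17.24, 17.53, 17.09 and 17.14 in DKO organoids. It was highest in *Rnaseh2b* ΔIEC libraries, and within *Atg16l1* ΔIEC organoids higher in libraries 3 and 4, which were also the higher for *Slc51a*, *Slc51b*, *Nr1h4* and *Nr0b2*. Within WT organoids libraries 1 and 2 had the higher sums, with higher *Slc51a* and *Nr0b2*, lower *Nr1h4* and overlapping *Slc51b* compared with libraries 3 and 4. Within DKO organoids libraries 1 and 2 also had the higher sums, with higher *Nr0b2*, while *Slc51a*, *Slc51b* and *Nr1h4* showed no such order. In WT, *Atg16l1* ΔIEC and DKO organoids alike, the pair with higher sums and higher *Nr0b2* was the one with low *Xist*. Both *Rnaseh2b* ΔIEC libraries also had low *Xist*. With sex as a covariate 40 of 42 values of the tested members kept direction and side of the threshold, and the part of sex in the marker sums was not tested. In bulk RNA, fewer cells of a type and less RNA per cell cannot be told apart, and the part of enterocyte content in the differences of the bile acid genes was not tested.

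**Figure D3:**
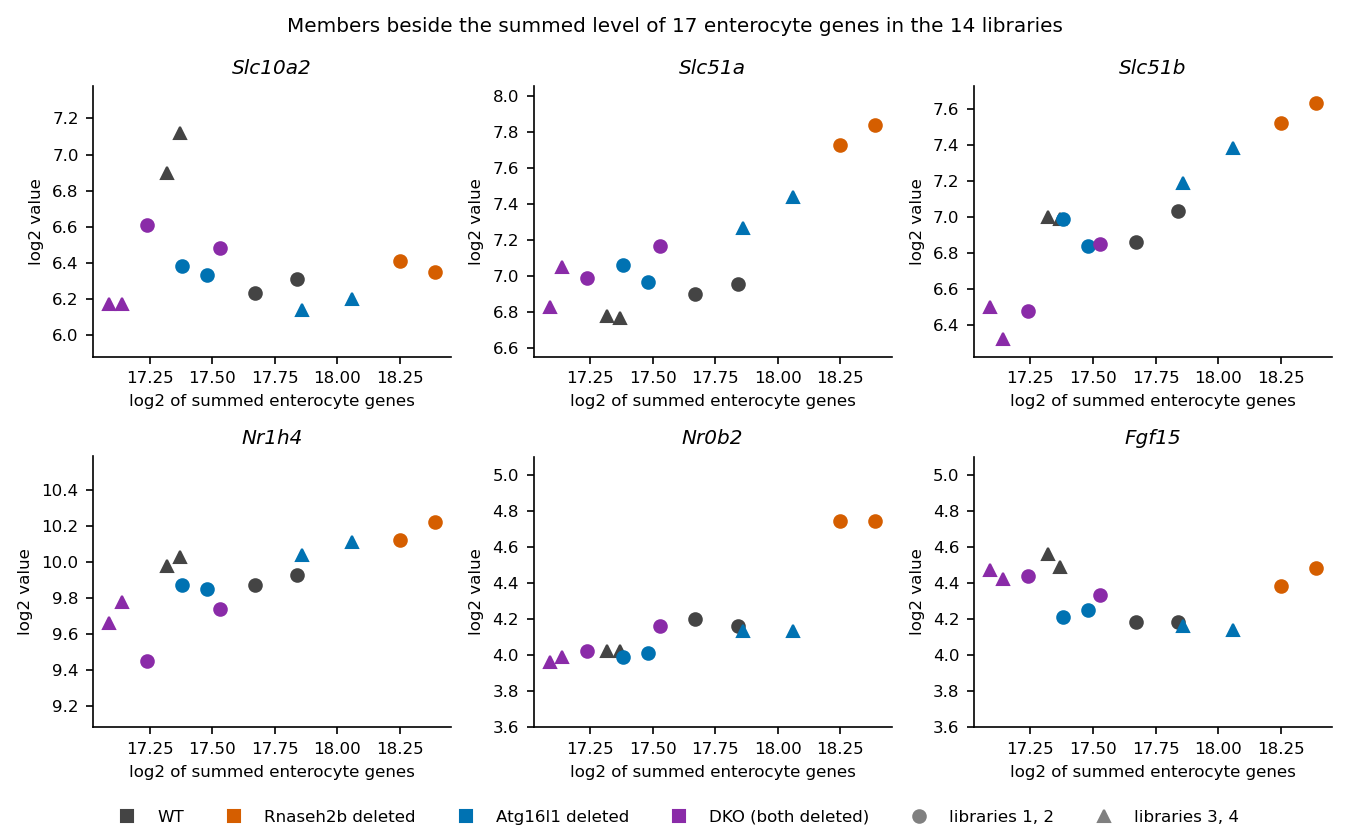
Log2 value of each tested gene (vertical axis) against the log2 summed level of 17 enterocyte markers (horizontal axis), with 1 point per library coloured by genotype. The *Rnaseh2b* ΔIEC libraries, at 18.25 and 18.39, lie farthest to the right, and DKO libraries 3 and 4, at 17.09 and 17.14, farthest to the left.

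Markers shared by epithelial cells were read at high levels in every genotype. *Epcam* lay between 14.64 and 14.76 (log2) in all libraries, and of 7 epithelial genes 1 rose and 0 fell in *Rnaseh2b* ΔIEC against WT (median -0.04) and 1 rose and 0 fell in DKO against *Rnaseh2b* ΔIEC (median 0.07). The gene that rose in *Rnaseh2b* ΔIEC organoids was the brush border gene *Vil1* (0.27 ± 0.08, adjusted p = 0.026), which was also higher in *Atg16l1* ΔIEC libraries 3 and 4 (14.47 and 14.44) than in 1 and 2 (14.24 and 14.21) and had an interaction of -0.42 (adjusted p = 0.0084), the direction of the enterocyte markers. Of 8 stromal and immune genes 2 passed the filter on low values, the endothelial *Pecam1* at 4.21 to 4.51 and the myeloid *Lyz2* at 3.77 to 3.94, while the T cell gene *Cd3e* read -1.33 to -1.31 and the fibroblast collagen *Col1a1* 2.03 to 2.13. Of 5 markers of distal small intestine outside the 7 genes, 2 rose in *Rnaseh2b* ΔIEC against WT, *Cubn* (0.90 ± 0.25, adjusted p = 0.017) and *Amn* (0.68 ± 0.13, 0.0027), which form the receptor for the intrinsic factor-cobalamin complex, and 1 fell, the enteroendocrine hormone gene *Pyy* (-0.61 ± 0.12, 0.0036). In DKO against WT 4 of the 5 fell (median -0.53), among them the neuropeptide gene *Nts* (-0.83 ± 0.12, adjusted p = 0.0013), and 4 fell against *Rnaseh2b* ΔIEC (median -0.70). *Nts* itself differed by 0.04 in *Rnaseh2b* ΔIEC against WT (adjusted p = 0.87). Of 9 proximal markers, 3 rose and 1 fell in *Rnaseh2b* ΔIEC against WT (median 0.05) and 3 fell in DKO against *Rnaseh2b* ΔIEC (median 0.01). The 3 that rose, and again the 3 that fell, were *Lct*, *Fabp1* and *Apoa4*, which the enterocyte list also holds. *Gata4*, which represses ileal genes in the proximal intestine, read 12.32 to 12.52 in the 14 libraries and passed in no comparison.

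Partner and related receptors of bile acids were also measured, and 6 of the 7 listed were tested. Counts of this and the other lists stand beside 26.7% of all genes in *Rnaseh2b* ΔIEC against WT and 25.5% in DKO against *Rnaseh2b* ΔIEC, and they come from the fit that treats libraries as independent, as alternatives were run for the 6 tested members and for the count of all genes. In *Rnaseh2b* ΔIEC against WT 3 rose and 0 fell (median 0.31): the vitamin D receptor *Vdr*, which lithocholic acid also activates (0.36 ± 0.06, adjusted p = 0.0011), the FXR partner *Rxra* (0.31 ± 0.05, 0.00097) and the xenobiotic receptor *Nr1i2* (0.30 ± 0.07, 0.0077). In DKO against *Rnaseh2b* ΔIEC 1 rose and 4 fell (median -0.27), with *Rxra* at -0.49 ± 0.05 (adjusted p = 0.00014), *Vdr* at -0.30 ± 0.06 (0.0035) and *Nr1i3* at -0.77 ± 0.26 (0.041). *Rxra* moved in 5 of the 6 pairwise comparisons, rising in *Atg16l1* ΔIEC against WT (0.26 ± 0.04, adjusted p = 0.0012) and falling in DKO against WT (-0.17 ± 0.04, 0.017) and against *Atg16l1* ΔIEC (-0.43 ± 0.04, 5.0e-05). The gene that rose in DKO against *Rnaseh2b* ΔIEC was *Rxrb*, another RXR (0.15 ± 0.05, adjusted p = 0.033).

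Among 10 transcription factors of ileal enterocytes or of proximal identity, 3 rose and 0 fell in *Rnaseh2b* ΔIEC against WT (median 0.12), a share close to the 26.7% of all genes. These were *Hnf4g* (0.55 ± 0.11, adjusted p = 0.0035), *Maf* (0.33 ± 0.10, 0.027) and *Nr5a2*, which encodes the SHP-repressed receptor LRH-1 (0.29 ± 0.09, 0.026). In DKO against *Rnaseh2b* ΔIEC 0 rose and 5 fell (median -0.16), the same 3 by -0.67 ± 0.11 (adjusted p = 0.0013), -0.44 ± 0.10 (0.0076) and -0.36 ± 0.09 (0.0094), together with *Gata6* and *Cdx2*. *Cdx2* alone fell in *Atg16l1* ΔIEC against WT (-0.14 ± 0.03, adjusted p = 0.0059) and in DKO against WT (-0.15 ± 0.03, 0.0065), and 4 of the 10 fell in DKO against *Atg16l1* ΔIEC. In *Rnaseh2b* ΔIEC against *Atg16l1* ΔIEC limma called 0 of the 10, with 4 at an unadjusted p below 0.05.

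Further genes of bile acid transport, synthesis and conjugation were thinly represented, with 8 of 15 tested, and the canalicular export pump *Abcb11* read 0.78 to 0.84 (log2). *Cyp27a1*, which hydroxylates the sterol side chain, rose in *Rnaseh2b* ΔIEC (0.87 ± 0.09, adjusted p = 7.2e-05), *Atg16l1* ΔIEC (0.30 ± 0.08, 0.017) and DKO organoids (0.41 ± 0.08, 0.0053) against WT. In *Rnaseh2b* ΔIEC against WT 2 of the 8 rose and 0 fell (median 0.17), again near the 26.7% of all genes, the other being the efflux pump *Abcb1a* (0.41 ± 0.13, adjusted p = 0.038). The basolateral efflux pump *Abcc4* rose in DKO organoids against WT (0.65 ± 0.12, adjusted p = 0.0052) and against *Atg16l1* ΔIEC (0.71 ± 0.12, 0.0015). Its direction in DKO against WT was thus opposite to that of *Slc51b*. In DKO against *Rnaseh2b* ΔIEC 0 rose and 3 fell (median -0.23), led by *Cyp27a1* (-0.46 ± 0.09, adjusted p = 0.0045) and *Slc27a2* (-0.46 ± 0.13, 0.02).

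For the receptors of FGF15 and its secretion, 5 of 6 genes were tested. In *Rnaseh2b* ΔIEC against WT and in DKO against WT limma called 0 of the 5, with 1 and 2 at an unadjusted p below 0.05. *Fgfr2* fell in *Atg16l1* ΔIEC against WT (-0.67 ± 0.13, adjusted p = 0.0032) and was higher in DKO than in *Atg16l1* ΔIEC organoids (0.84 ± 0.13, 0.00091), as was *Fgfr4* (0.42 ± 0.13, 0.036), whose libraries overlapped. DKO organoids differed from *Rnaseh2b* ΔIEC in 2 of the 5, with *Fgfr2* higher (0.57 ± 0.15, adjusted p = 0.018) and *Fgfr3* lower (-0.32 ± 0.09, 0.019). The coreceptor gene *Klb* read 5.35 to 5.65 (log2) and *Malrd1*, which promotes FGF15 output from enterocytes, 10.63 to 11.03, and neither passed in any comparison.

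Sterol transporters formed the last list, with 6 of 6 genes tested. In *Rnaseh2b* ΔIEC against WT 4 of 6 rose and 0 fell (median 0.54): the efflux transporter *Abca1* (0.87 ± 0.29, adjusted p = 0.038), the apical sterol efflux pair *Abcg5* (0.57 ± 0.14, 0.01) and *Abcg8* (0.54 ± 0.11, 0.004), and the lipoprotein receptor *Scarb1* (0.55 ± 0.15, 0.016). In DKO against *Rnaseh2b* ΔIEC 4 fell and 0 rose (median -0.63), with *Scarb1* at -1.0 ± 0.15 (adjusted p = 0.00079), *Abcg5* at -0.65 ± 0.14 (0.0056), *Abcg8* at -0.60 ± 0.11 (0.0024) and the cholesterol uptake transporter *Npc1l1* at -0.44 ± 0.12 (0.019). *Npc1l1* (0.04, adjusted p = 0.84) and *Soat2* (-0.10, 0.46) did not pass in *Rnaseh2b* ΔIEC against WT, nor did *Abca1* in DKO against *Rnaseh2b* ΔIEC (-0.80, 0.056). Against WT, *Scarb1* (-0.45 ± 0.12, adjusted p = 0.026) and *Npc1l1* (-0.40 ± 0.10, 0.018) fell in DKO organoids, and the cholesterol esterifying enzyme gene *Soat2* rose in *Atg16l1* ΔIEC organoids (0.38 ± 0.08, 0.0068). *Soat2* was lower in *Rnaseh2b* ΔIEC than in *Atg16l1* ΔIEC organoids (-0.48 ± 0.10, adjusted p = 0.013), and no other gene of the list passed in that comparison. In DKO against *Atg16l1* ΔIEC 4 of 6 fell and 0 rose (median -0.34), beside 25.1% of all genes, among them *Npc1l1* (-0.63 ± 0.10, adjusted p = 0.0012).

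The 6 tested genes fell into sets by their course over the 14 libraries, given as Pearson's r with no test, since the libraries form 4 genotypes. *Slc51b* was most like *Nr1h4* (0.88), *Slc51a* most like *Nr0b2* (0.86), and the exporter subunits were alike with r of 0.74. *Slc10a2* and *Fgf15* were alike with r of 0.59, and their r with the other 4 genes lay between -0.34 and 0.09. Over all tested genes, the course of *Slc51a* was closest to *Lasp1* (0.98), *Slc6a19* (0.97) and *Dhrs1* (0.97), and that of *Slc51b* to *Cndp1*, *Bst1* and *Fbp1* (0.97 each). *Nr1h4* was closest to *Sox13* (0.97), *Igsf3* (0.96) and *Ceacam20* (0.95), and *Nr0b2* to *1810055G02Rik* (0.98), *Mbl2* (0.96) and *Aqp8* (0.96). Of the pair with raised WT libraries, *Slc10a2* was closest to *Ccser1* (0.92), *Mgat4c* (0.91) and *Ocln* (0.90), and *Fgf15* to *Dock11* (0.89), *Exosc4* (0.84) and *Grasp* (0.84).

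FXR binds DNA as a heterodimer with RXR at inverted repeats of a hexamer, AGGTCA, 1 base apart. The RefSeq promoters of mouse (GRCm38.p6, 300 bases each) held 6 of the 7 genes, all but *Fgf15*, and were searched for the 13-base window with the fewest mismatches to this repeat over its 12 hexamer bases. The repeat is its own reverse complement, so that both strands are read at once. Shown are the promoters of *Fabp6*, with the fewest mismatches, and of *Slc51a*, *Slc51b* and *Nr0b2*, which moved together in *Rnaseh2b* ΔIEC organoids, each 5′ to 3′ on its gene's strand with the best windows in capitals.
Fabp6: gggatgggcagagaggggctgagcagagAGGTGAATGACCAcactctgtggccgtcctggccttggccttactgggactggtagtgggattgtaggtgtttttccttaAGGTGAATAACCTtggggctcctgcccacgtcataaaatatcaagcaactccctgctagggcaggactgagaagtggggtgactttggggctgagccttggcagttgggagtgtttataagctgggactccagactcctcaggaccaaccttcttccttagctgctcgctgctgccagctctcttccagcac
Slc51a: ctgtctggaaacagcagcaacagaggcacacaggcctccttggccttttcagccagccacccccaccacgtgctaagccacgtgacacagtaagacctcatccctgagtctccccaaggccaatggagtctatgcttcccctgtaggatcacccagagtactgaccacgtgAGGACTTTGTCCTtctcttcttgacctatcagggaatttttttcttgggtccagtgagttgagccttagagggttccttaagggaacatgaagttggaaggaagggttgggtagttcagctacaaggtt
Slc51b: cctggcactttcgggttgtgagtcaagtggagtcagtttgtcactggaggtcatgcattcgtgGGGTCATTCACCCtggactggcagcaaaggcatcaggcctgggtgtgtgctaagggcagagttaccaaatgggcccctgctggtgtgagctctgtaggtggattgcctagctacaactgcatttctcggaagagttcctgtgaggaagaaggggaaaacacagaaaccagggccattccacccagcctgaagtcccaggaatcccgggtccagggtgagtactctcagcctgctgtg
Nr0b2: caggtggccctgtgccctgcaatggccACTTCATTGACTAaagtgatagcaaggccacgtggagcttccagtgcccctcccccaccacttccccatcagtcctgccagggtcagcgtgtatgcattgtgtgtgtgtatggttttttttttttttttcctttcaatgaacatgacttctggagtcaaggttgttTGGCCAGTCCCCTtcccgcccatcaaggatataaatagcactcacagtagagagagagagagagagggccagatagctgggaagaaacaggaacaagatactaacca
The *Fabp6* promoter (chr11:43601513-43601812, minus strand) held 2 windows with 2 mismatches, AGGTGAATGACCA and AGGTGAATAACCT, starting 222 and 142 bases before the start site, and 1.14% of 32851 promoters had 2 or fewer. The promoters of *Slc51a* (chr16:32487830-32488129, minus strand) and *Slc51b* (chr9:65422724-65423023, minus strand) each had 3 mismatches at best, in AGGACTTTGTCCT and GGGTCATTCACCC, starting 79 and 187 bases before the start site, and 11.4% of promoters had 3 or fewer. *Nr0b2* (chr4:133553126-133553425, plus strand), *Slc10a2* and *Nr1h4* had 4 mismatches at best, and 56.4% of promoters had 4 or fewer. The *Nr1h4* promoter searched (chr10:89506609-89506908, minus strand) lies inside the gene's span of chr10:89454234-89533585. The promoter at the annotated 5′ end of *Nr1h4* was not searched. The gene with the closest matches, *Fabp6*, was thus the weakest expressed of the 7, and the matches describe letters in these windows and not binding.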

How the data were processed

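Polyadenylated RNA of 14 organoid libraries was read by the authors as single reads from stranded libraries, trimmed with cutadapt, aligned with TopHat2 to GRCm38, counted with HTSeq and normalised with DESeq2. The deposited values are log2 normalised expression per gene, and were used as they are. Read depth per library is unknown, and so is the precision that depth would give. The authors left out other *Rnaseh2b* ΔIEC libraries for their read counts, which left n = 2. Differences were tested with limma (version 3.58.1, R 4.3.3), with 1 mean per genotype and a mean trend in the prior, over 12802 genes with a mean of at least 3.32 (log2 of 10). Tests were two-sided, with Benjamini-Hochberg adjustment over all genes tested and a threshold of 0.05, and reported SE and 95% intervals come from the same fit. Alternatives were no filter, a pseudocount of 1 on the linear scale, median scaling (shifts of at most 0.01), lane as a covariate, a single lane, a replicate block, the pair as a random effect (estimated correlation 0.65), leaving out each library and, added after seeing the data, leaving out each WT pair and sex as a covariate. Where a comparison was left with 1 *Rnaseh2b* ΔIEC library, that library was assumed to vary like the others. Named genes were the 7 members, the deleted genes, up to 4 passing genes of each list with the largest differences, and the 3 genes most like each member, and any others were picked after their values were seen. Members and lists were chosen with earlier results of these data known. Tables and plots were made with Python 3.11.15, pandas 2.3.3, numpy 2.4.6 and matplotlib 3.10.9.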

Additional observations from a re-analysis of the deposited data

Results flagged for a closer look

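For 4 genes the effect of *Rnaseh2b* deletion differed between *Atg16l1*-deleted and *Atg16l1*-intact organoids by limma's test of the difference itself. The interaction on the log2 scale was -1.11 for *Slc51a*, where DKO minus *Atg16l1* ΔIEC was -0.18 and *Rnaseh2b* ΔIEC minus WT was 0.94. For *Slc51b* it was -1.17, from -0.56 and 0.60. *Nr1h4* had a value of -0.53, from -0.31 and 0.22, and *Nr0b2* of -0.67, from -0.03 and 0.64. The fit treats libraries as independent. With the pair as a random effect the value of *Nr1h4* no longer passed (adjusted p = 0.074), nor did that of *Slc51b* when lane was added as a covariate (-0.78, adjusted p = 0.073). In the same contrast the median of 17 enterocyte markers was -1.38, that of 5 goblet markers 1.40 and that of 5 stem cell markers 1.03. All 4 rest on the 2 *Rnaseh2b* ΔIEC libraries, which may be a single pair. *Rnaseh2b* itself was less reduced in DKO than in *Rnaseh2b* ΔIEC organoids, with a level higher by 0.63. *Atg16l1* was less reduced in DKO than in *Atg16l1* ΔIEC organoids, with a level higher by 1.46, so that the 2 groups did not share the same *Atg16l1* level. Whether the markers or these differences in deletion bear on the 4 values was not tested.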

How the results depend on the processing

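Of 990 values of single genes under an alternative, 899 kept direction and side of the threshold, 49 no longer passed, 19 came to pass and 23 changed sign, all of the last without passing in the original fit. The cause was not tested. Replicate numbers did not pair libraries across genotypes (r -0.50 to 0.44), and with the replicate block 39 of 42 values kept direction and side.

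Members passing in *Atg16l1* ΔIEC against WT numbered 0 with lane as a covariate, the replicate block, the pair as a random effect or without WT libraries 3 and 4, 2 with sex as a covariate and 3 without WT libraries 1 and 2. Of all 12802 genes, 1586, 2666, 384, 1802, 3363 and 1898 passed in these fits, in the same order. In DKO against WT the members that passed numbered 1 with lane as a covariate or without either WT pair, and 0 with the pair as a random effect, which also gave 0 in DKO against *Atg16l1* ΔIEC and 1 in *Rnaseh2b* ΔIEC against *Atg16l1* ΔIEC. Of all genes, 1418 passed in DKO against WT with lane as a covariate, 498 without WT libraries 1 and 2 and 2341 without WT libraries 3 and 4. Leaving out 1 library gave 2 to 4 members in *Rnaseh2b* ΔIEC against WT, 0 to 1 in *Atg16l1* ΔIEC against WT, 1 to 2 in DKO against WT, 2 to 3 in DKO against *Atg16l1* ΔIEC, 1 to 3 in *Rnaseh2b* ΔIEC against *Atg16l1* ΔIEC, and 4 throughout in DKO against *Rnaseh2b* ΔIEC and the interaction.

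Genes passing with the pair as a random effect numbered 728, 384 and 85 against WT in *Rnaseh2b* ΔIEC, *Atg16l1* ΔIEC and DKO organoids, 692 in DKO against *Rnaseh2b* ΔIEC, 478 in DKO against *Atg16l1* ΔIEC, 61 in *Rnaseh2b* ΔIEC against *Atg16l1* ΔIEC and 1553 in the interaction. With lane as a covariate they numbered 1504 in *Rnaseh2b* ΔIEC against WT, 1586 in *Atg16l1* ΔIEC against WT, 1622 in *Rnaseh2b* ΔIEC against *Atg16l1* ΔIEC and 2580 in the interaction. There were 2199 in *Rnaseh2b* ΔIEC against WT without WT libraries 3 and 4, 498 in DKO against WT without WT libraries 1 and 2 and 1311 with lane 1 alone, and 424 in *Rnaseh2b* ΔIEC against *Atg16l1* ΔIEC with the replicate block. Leaving out 1 library gave 1135 to 3832, 1659 to 2870 and 1001 to 2074 for the same comparisons against WT, 757 to 3288 in DKO against *Rnaseh2b* ΔIEC, 1827 to 3470 in DKO against *Atg16l1* ΔIEC, 90 to 1105 in *Rnaseh2b* ΔIEC against *Atg16l1* ΔIEC and 2706 to 4714 in the interaction.

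Without WT libraries 3 and 4, *Slc10a2* changed sign in *Rnaseh2b* ΔIEC (0.11) and DKO (0.09) against WT and in the interaction (-0.02), and *Fgf15* in *Atg16l1* ΔIEC against WT (0.01) and the interaction (-0.03). Without WT libraries 1 and 2, *Fgf15* did so in *Rnaseh2b* ΔIEC (-0.09) and DKO (-0.11) against WT, *Nr1h4* in *Atg16l1* ΔIEC (-0.03), and *Nr0b2* in *Atg16l1* ΔIEC (0.05) and DKO (0.01). With lane as a covariate *Slc51b* was -0.12 in *Atg16l1* ΔIEC against WT, and, also with lane 2 alone, *Slc10a2* was 0.16 in DKO against *Rnaseh2b* ΔIEC and *Nr0b2* 0.03 in DKO against *Atg16l1* ΔIEC. Leaving out 1 library, *Nr1h4* ranged from -0.03 to 0.06 in *Atg16l1* ΔIEC against WT, and in DKO against *Rnaseh2b* ΔIEC *Slc10a2* from -0.11 to 0.03 and *Fgf15* from -0.07 to 0.03.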

Other observations

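Other marker lists moved beside the bile acid genes, and their part was not tested. In DKO against *Rnaseh2b* ΔIEC, 5 of 5 goblet genes rose (median 0.79), 2 of 5 stem cell genes rose and 1 fell (0.50), 1 of 5 Paneth genes rose (0.55) and 2 of 5 enteroendocrine genes rose (0.35), while 1 of 2 tested colon genes fell (-0.35) and limma called 0 of 3 tuft genes, with 0 at an unadjusted p below 0.05. In *Rnaseh2b* ΔIEC against WT, 3 of 5 goblet, 2 of 5 stem cell and 2 of 3 tuft genes fell (medians -0.61, -0.31 and -0.38), and 1 of 2 colon genes rose (0.45). In *Atg16l1* ΔIEC against WT, 5 of 5 stem cell genes and 3 of 5 goblet genes fell (-0.52 and -0.56). In DKO against *Atg16l1* ΔIEC, 5 of 5 goblet, 4 of 5 stem cell and 4 of 5 Paneth genes rose (0.50, 0.62 and 0.63). In DKO against WT 3 of 5 Paneth genes rose (0.56), and 1 of 5 goblet and 1 of 5 stem cell genes fell (medians 0.30 and -0.12). Of the goblet genes only *Clca1* had a lower mean in DKO organoids, while *Muc2*, *Tff3*, *Fcgbp* and *Agr2* had higher means and did not pass. Over all genes, the share that passed was 25.5% in DKO against *Rnaseh2b* ΔIEC, 26.7% in *Rnaseh2b* ΔIEC against WT, 19.1% in *Atg16l1* ΔIEC against WT, 25.1% in DKO against *Atg16l1* ΔIEC and 16.1% in DKO against WT. Of 5 liver genes listed, *Alb* read 5.35 to 6.20 and *Ttr* 10.37 to 10.99 (log2). *Serpina1a* read -1.07 to -1.05 and was not tested, and *Cyp7a1* and *Slc10a1* were absent from the deposited values. Of 2 liver genes tested, 1 rose in DKO against *Atg16l1* ΔIEC (median 0.19) and 1 fell in *Atg16l1* ΔIEC against WT (median -0.18). In DKO against WT limma called 0 of the 2 (median 0.00), with 0 at an unadjusted p below 0.05. Of 2 tested stromal and immune genes, 1 rose in DKO against *Rnaseh2b* ΔIEC (median 0.04).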
